A study of Mus musculus with 3 samples.

Results

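The heat shock chaperones described here are 10 genes, Hspa1a, Hspa1b, Hspb1, Hsph1, Dnajb1, Hsp90aa1, Dnaja1, Hsp90ab1, Hspa8 and Hspa5, taken by symbol from the 27998 genes of each single-cell count matrix. All 10 had transcripts in each library. The cells came from the subventricular zone, the wall of the lateral ventricle where new neurons are made in the adult mouse, and were dissociated in warm papain. The adult mice carried aSMACreERt2::Rosa26-tdTomato, in which a tamoxifen-dependent Cre under the smooth muscle actin promoter switches on the red protein tdTomato. They also carried the reporter of B6;129S-Sox2tm2Hoch/J, in which GFP marks Sox2-expressing cells, and their background mixed C57/Bl6 with 129S1SvlmJ. One population was a single library of tdTomato-positive, GFP-positive cells (tdTom+, 1200 sorted). It was set against 2 libraries of tdTomato-negative, GFP-positive cells (tdTom- 1 and 2, 1200 and 6000 sorted). All groups therefore share the Cre, the tdTomato allele and the Sox2 reporter, and the Cre driver is one that smooth muscle cells use as well. The labels count 5 mice without tying them to libraries, so each p-value measures only the spread between these libraries, which may be technical. No age in weeks and no tamoxifen schedule was used here.

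Chaperones bind unfolded protein and help it fold, refold or be degraded. On heat or another protein-damaging stress, the transcription factor HSF1 trimerises, binds heat shock elements and raises the inducible set, here Hspa1a and Hspa1b (the inducible HSP70 pair), Hspb1 (the small heat shock protein HSP27), Hsph1 (HSP105, a nucleotide exchange factor of HSP70) and Dnajb1 (the HSP40 that hands substrates to HSP70). Hsp90ab1 (HSP90 beta) and Hspa8 (HSC70) work in the cytosol of unstressed cells. Hsp90aa1 (HSP90 alpha) and Dnaja1 (an HSP40) are present at rest and raised further by heat, and Hspa5 (BiP) is the HSP70 of the endoplasmic reticulum, raised by the unfolded protein response.

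The sequences just upstream of 4 inducible genes are shown because they hold letters of the element that HSF1 is known to bind, and that of Hspa5 because it holds those of a different one. Each line gives 150 bases upstream of the annotated start, read 5′ to 3′ on the gene's strand, from RefSeq on GRCm38.p6. Capitals mark matches to the heat shock element core in either arrangement, GAANNTTC or TTCNNGAA, which read the same on both strands, or, in Hspa5, to the endoplasmic reticulum stress element, a CCAAT box and a CCACG at a fixed spacing, searched on both strands.
Hspa1a, chr17:34972157-34972306, minus strand: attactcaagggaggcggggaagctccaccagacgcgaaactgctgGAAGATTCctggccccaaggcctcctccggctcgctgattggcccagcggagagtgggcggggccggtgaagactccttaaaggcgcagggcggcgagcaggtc
Hspa1b, chr17:34959239-34959388, minus strand: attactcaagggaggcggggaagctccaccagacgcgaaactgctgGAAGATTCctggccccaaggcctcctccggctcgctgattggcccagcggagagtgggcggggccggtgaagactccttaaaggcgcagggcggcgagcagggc
Hspb1, chr5:135887769-135887918, plus strand: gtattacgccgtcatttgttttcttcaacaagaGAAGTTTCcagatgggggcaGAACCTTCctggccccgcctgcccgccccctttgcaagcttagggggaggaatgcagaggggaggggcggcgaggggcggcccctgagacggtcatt
Hsph1, chr5:149636337-149636486, minus strand: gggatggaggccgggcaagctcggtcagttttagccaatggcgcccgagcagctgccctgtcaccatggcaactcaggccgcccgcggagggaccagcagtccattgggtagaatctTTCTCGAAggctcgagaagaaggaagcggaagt
Hspa5, chr2:34771940-34772089, plus strand: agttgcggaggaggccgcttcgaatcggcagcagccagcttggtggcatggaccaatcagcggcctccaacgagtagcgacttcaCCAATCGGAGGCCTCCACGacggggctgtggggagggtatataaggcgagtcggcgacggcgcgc

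The Hspa1a and Hspa1b sequences were identical at 149 of these 150 bases, and both held the core at -104 to -97 from the start. Hspb1 held a pair of cores, starting at -117 and -97. Hsph1 held the core at -33 to -26 and, just downstream of the start at 36 to 48, the overlapping cores of ttctggaaagttc, a run of alternating units found in 0.603% of windows on either strand. The endoplasmic reticulum stress element of Hspa5 was at -65 to -47, before a RefSeq start that lies inside the GENCODE gene. Across 32851 windows of 300 bases around annotated starts, GAANNTTC was in 7.86%, TTCNNGAA in 8.52% and the Hspa5 element in 0.119%. Of the other members with a window, Dnaja1 held gaaaattc at -124 in the first of its 3 windows, and Dnajb1 held no match in the letters searched. A match describes these letters and is neither a binding site nor a cause of a level. Promoter windows were matched for 7 of the 10 members; Hsp90aa1, Hsp90ab1 and Hspa8 are given by their values.

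After filtering, 252, 256 and 1121 cells were kept in the tdTom+ library and tdTom- libraries 1 and 2, with 2535, 2640 and 2401 UMIs (molecules counted once each) per cell at the median. The median mitochondrial share of these cells was 8.27%, 3.22% and 3.38% in the same order of libraries. Cells were clustered without any member or list gene, and the clusters were named from marker lists. The ependymal-like cluster held 234 cells (177, 12 and 45 by library), the astrocyte-like cluster 211 (15, 32 and 164), the transit-amplifying-like class 271 (1, 50 and 220) and the neuroblast-like cluster 368 (2, 53 and 313). The transit-amplifying-like class, dividing cells, joined a cluster led by Ung, Thrsp and Mcm2 with a cluster led by Top2a, Cenpf and Nusap1. The cluster led by Top2a took its name from cell cycle genes alone, so dividing neuroblasts in it were not told apart from progenitors. The tdTom+ library alone held 20 endothelial-like cells, 13 microglia-like cells and 8 that were mural-like, and 65 and 333 cells formed clusters led by Gfap and Id3 and by Prokr2 and Pbx3 that met no name. At most 2 cell barcodes were shared between any pair of libraries. Levels are UMIs of a gene per 1000000 UMIs (CPM) summed over a library's cells of a class, so that fewer cells and less RNA per cell cannot be told apart where classes are pooled; UMIs count transcript 3′ ends, so they do not scale with transcript length, and genes are set side by side as molecules.

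The inducible HSP70 pair was close to the detection limit in these dissociated cells. Over all 1629 kept cells, Hspa1a had 43 UMIs in 30 cells and Hspa1b had 51 UMIs in 39 cells, and 4 cells held both. Hspa1a is at chr17:34969190-34972156 and Hspa1b at chr17:34956436-34959238, both on the minus strand and both with a single exon (GENCODE, GRCm38). Their transcripts were identical at 94.2% of aligned bases with a shared run of 638 bases, so reads could be split or lost between them in principle. The last 500 bases, where 3′ reads fall, shared no run longer than 10 bases, and 0 of 451 windows of 50 bases there were shared.

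Most transcripts of the pair were in ependymal-like cells. Hspa1b measured 62.9 CPM in the tdTom+ library and 44.5 and 28.8 CPM in tdTom- libraries 1 and 2, from 37, 2 and 5 UMIs. Hspa1a measured 35.7, 22.2 and 17.3 CPM there, from 21, 1 and 3 UMIs. Oligodendrocyte-like cells of tdTom- library 2 had similar levels, with 28.7 CPM of Hspa1b and 19.2 CPM of Hspa1a. These rest on 3 and 2 UMIs in 20 cells, and the 14 oligodendrocyte-like cells of the tdTom+ library had 0 UMIs of either gene. In the 20 endothelial-like cells Hspa1a had 29.1 CPM from 1 UMI and Hspa1b had 0 UMIs. Neuroblast-like cells had 0 UMIs of either gene among 883421, which allows up to 3.40 CPM. Each ependymal-like value was above that limit, but those of tdTom- library 1 rest on 1 and 2 UMIs in 12 cells, and after thinning 0 of its 11 cells held either gene. Pooled over libraries, Hspa1b was at least 16.1-fold higher in ependymal-like than in neuroblast-like cells and Hspa1a at least 9.12-fold, against a floor of 3 counts over the class. Against astrocyte-like cells, which held 0 UMIs of Hspa1b, it was at least 9.59-fold higher. For Hspa1a, with 2 UMIs in astrocyte-like cells, the ratio was 8.17 (exact 95% interval 2.04 to 71.2). Intervals cover counting error only, and floors only that of the class with 0 UMIs. The tdTom+ library gave 37 of 44 Hspa1b and 21 of 25 Hspa1a UMIs of the ependymal-like cells. It held only 2 of 368 neuroblast-like and 15 of 211 astrocyte-like cells. These pooled folds therefore mix class with library and are not lower bounds for a single library.

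The pair was sparse even where it was highest. In ependymal-like cells 18 of 234 held Hspa1a and 33 held Hspa1b, which is 7.69% (exact Clopper-Pearson 95% interval 4.62 to 11.9) and 14.1% (9.91 to 19.2), with 3 cells holding both and no cell above 5 UMIs of the pair. Thinned to 1000 UMIs a cell, the shares were 2.31% and 4.63%. Neuroblast-like cells, with 0 of 368 before thinning (a count of 0 that allows up to 0.815% of cells with a UMI, from 3 counts) and 0 of 366 after it, give the background. Median UMIs per cell were 3632.5 in the ependymal-like and 2284.5 in the neuroblast-like cluster. In the transit-amplifying-like class Hspa1a had 10 UMIs in 4 of 271 cells, all in tdTom- library 2, and Hspa1b had 1 UMI. Neither gene passed the filter on low counts in the comparison of classes, so no test between classes is given for them.

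**Figure D1:**
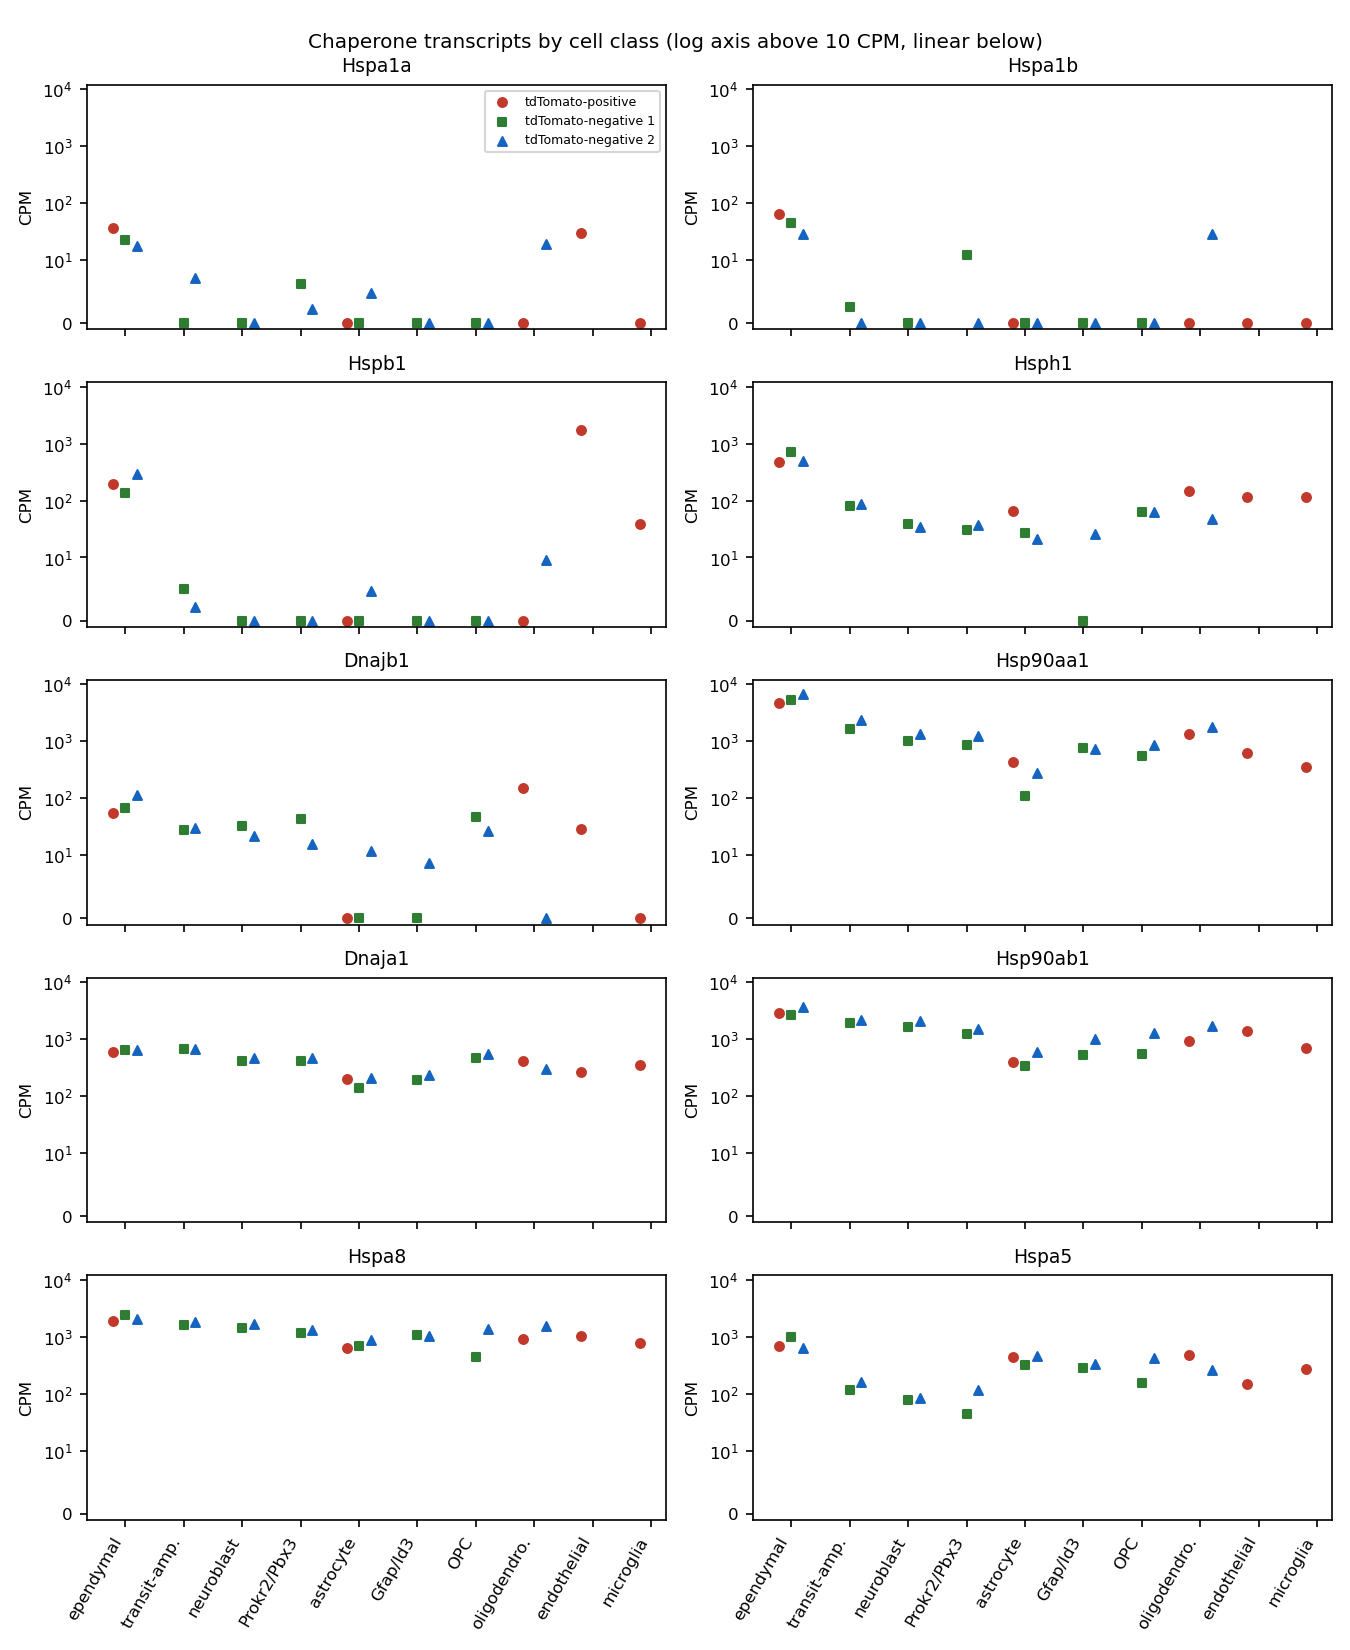
Level of each of the 10 chaperones (CPM, log axis above 10 and linear below) in each cell class, with a point for each library that held at least 10 cells of the class. Hspa1a, Hspa1b and Hspb1 are at or near 0 in several classes and every plotted Hsph1 point outside ependymal-like cells is at most 148 CPM, whereas every Hsp90ab1 and Hspa8 point lies between 338 and 3676 CPM.

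Hspb1, the small heat shock protein (chr5:135887919-135889563, plus strand), ran from 0 UMIs in 4 classes to its highest level in endothelial-like cells. Endothelial-like cells, present in the tdTom+ library alone, had 1719 CPM from 59 UMIs, and 18 of 20 cells held the transcript. Ependymal-like cells had 194 CPM in the tdTom+ library and 133 and 288 CPM in tdTom- libraries 1 and 2. Astrocyte-like cells had 0, 0 and 4.72 CPM in the same libraries, and neuroblast-like cells, cells led by Prokr2 and Pbx3 and oligodendrocyte precursor-like cells had 0 UMIs. The ependymal-like and astrocyte-like libraries did not overlap, and endothelial-like cells were above both. In the tdTom- libraries the ependymal-like cells had 0 UMIs of 7 of 10 endothelial markers, Cldn5, Flt1 and Cdh5 among them, and summed 845 and 1116 CPM over the other 3, against 1149 CPM in the tdTom+ library with 8 of 10 detected. No cell of the tdTom- libraries was called endothelial-like. After thinning, 14.4% of 216 ependymal-like cells and 92.3% of 13 endothelial-like cells held Hspb1, against 0 of 366 neuroblast-like cells. Within ependymal-like cells the thinned counts were uneven, with a variance of 1.74 times the mean.

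Hsph1 (chr5:149614287-149636376, minus strand) was found in most ependymal-like cells. Its level was 471 CPM in the tdTom+ library and 712 and 489 CPM in tdTom- libraries 1 and 2, against 66.8, 27.0 and 21.2 CPM in astrocyte-like cells. Transit-amplifying-like cells had 81.2 and 87.7 CPM in the tdTom- libraries, and neuroblast-like cells 39.0 and 34.4 CPM. Each ependymal-like value was above every value of the other 9 classes set in order, and the astrocyte-like, neuroblast-like and Prokr2 and Pbx3 values overlapped each other. A UMI was found in 163 of 234 ependymal-like cells (69.7%), and in 35.6% after thinning, against 1.64% of thinned neuroblast-like cells.

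Dnajb1 (chr8:83608193-83612653, plus strand) did not separate the classes cleanly. It measured 54.4 CPM in ependymal-like cells of the tdTom+ library and 66.7 and 115 CPM in those of the tdTom- libraries. Astrocyte-like cells had 0, 0 and 11.8 CPM, neuroblast-like cells 32.5 and 22.04 CPM and transit-amplifying-like cells 27.9 and 30.0 CPM in the tdTom- libraries. The ependymal-like range overlapped that of the oligodendrocyte-like cells, which had 148 CPM in the tdTom+ library from 4 UMIs and 0 in tdTom- library 2. Thinned shares were 3.24% in ependymal-like and 3.01% in neuroblast-like cells, near the level of 1 UMI, so no difference is read from them.

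Hsp90aa1 (chr12:110690605-110702728, minus strand), present at rest and raised by heat, was the most abundant member in ependymal-like cells. It measured 4801 CPM in ependymal-like cells of the tdTom+ library and 5406 and 6863 CPM in those of tdTom- libraries 1 and 2. Transit-amplifying-like cells had 1649.9 and 2355 CPM and neuroblast-like cells 1002 and 1349.7 CPM in the tdTom- libraries. Astrocyte-like cells, the lowest by mean of the 10 classes set in order, had 434, 108 and 281 CPM. These 4 classes did not overlap, with means of 5689.9 ± 1060.3 CPM in ependymal-like (SD, n = 3), 2002 ± 498 in transit-amplifying-like (n = 2), 1176 ± 246 in neuroblast-like (n = 2) and 274 ± 163 in astrocyte-like cells (n = 3). Thinned to 1000 UMIs, an ependymal-like cell held 5.10 Hsp90aa1 molecules on average and the highest cell 19, against 2.01, 1.29 and 0.211 on average in transit-amplifying-like, neuroblast-like and astrocyte-like cells. Of thinned ependymal-like cells, 96.8% held at least 1.

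Dnaja1 (chr4:40722150-40737149, plus strand) had similar levels in transit-amplifying-like and ependymal-like cells, with a 95% interval of -0.50 to 0.54 for the log2 fold change between them. It had 597, 645 and 644 CPM in ependymal-like cells of the tdTom+ and the 2 tdTom- libraries, and 655 and 659.8 CPM in transit-amplifying-like cells. Neuroblast-like cells had 409.9 and 460.0 CPM, and astrocyte-like cells 200.3, 135 and 208 CPM. The astrocyte-like libraries were below all of the others named here.

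The constitutive pair, Hsp90ab1 (chr17:45567775-45573271, minus strand) and Hspa8 (chr9:40800984-40810087, plus strand), was present in every class. By mean over libraries, both genes ranked ependymal-like, transit-amplifying-like and neuroblast-like cells highest and microglia-like and astrocyte-like cells lowest of the 10 classes. Hsp90ab1 measured 2852.5 CPM in ependymal-like cells of the tdTom+ library and 2669.5 and 3676 CPM in those of the tdTom- libraries, against 401, 338 and 585 CPM in astrocyte-like cells. In the tdTom- libraries it was 1914 and 2176 CPM in transit-amplifying-like cells and 1601 and 2057.5 CPM in neuroblast-like cells, ranges that overlap. Hspa8 measured 1859.8, 2447 and 2019 CPM in ependymal-like cells, against 634, 689 and 876 CPM in astrocyte-like cells, again without overlap. Its transit-amplifying-like values, 1581 and 1833 CPM, overlapped the neuroblast-like ones of 1438 and 1654 CPM.

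Hspa5 (chr2:34771970-34777547, plus strand) ordered the classes differently. Ependymal-like cells were highest with 695 CPM in the tdTom+ library and 1001 and 627 CPM in the tdTom- ones, and astrocyte-like cells came next with 434, 324 and 455 CPM. Transit-amplifying-like cells had only 117 and 160.5 CPM and neuroblast-like cells 78.1 and 84.0 CPM in the tdTom- libraries. By mean over libraries, astrocyte-like cells thus ranked last of 10 classes for Hsp90aa1, Dnaja1, Hsp90ab1 and Hspa8 and second for Hspa5. Their range overlapped that of the class ranked beside them for Hsp90aa1, Dnaja1 and Hspa8, and that of the class ranked just below for Hspa5. For Hsp90ab1 it overlapped the range of the cells led by Gfap and Id3. The cells led by Prokr2 and Pbx3 had 43.1 and 115 CPM, which overlapped the neuroblast-like range.

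The first comparison of classes set ependymal-like, the multiciliated lining of the ventricle, against astrocyte-like cells. The 8 members that passed the filter on low counts were each called higher in ependymal-like cells (edgeR quasi-likelihood test with library as a block, Benjamini-Hochberg adjusted p at most 0.05), where 18.5% of the 3446 genes tested were called higher and 31.1% called at all. Their median log2 fold change was 2.87, against 0.09 over all genes tested. A gene such as Hspb1 that passes the filter through the class where it is high had to differ, so these counts describe the genes that passed, without Hspa1a and Hspa1b. Hsp90aa1 differed by 4.51 ± 0.27 (log2 fold change ± SE, edgeR adjusted p = 1.81e-57) and Hsph1 by 4.19 ± 0.39 (adjusted p = 5.10e-25). Hspb1 differed by 5.78 ± 0.64 (edgeR adjusted p = 1.56e-17). With 2 UMIs in astrocyte-like cells, its pooled ratio, which mixes class with library, was 55.6 (exact 95% interval 15.2 to 463). Among the remainder, Dnajb1 differed by 2.98 ± 0.69, Hsp90ab1 by 2.76 ± 0.25, Dnaja1 by 1.66 ± 0.28 and Hspa8 by 1.52 ± 0.24. The smallest difference was that of Hspa5, 0.79 ± 0.25 (edgeR adjusted p = 0.00767), a call lost with DESeq2 (adjusted p = 0.0979), without the filter on low counts (0.0565), with the stricter cell filter (0.0961) and without tdTom- library 1 (0.403).

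Other chaperone groups are given beside the same share of all genes, 18.5% higher. Of 14 cochaperones of HSP70 and HSP90 tested, 9 were higher and 0 lower in ependymal-like cells, led by Ahsa1, the HSP90 ATPase activator (2.46 ± 0.34), Stip1, which links HSP70 to HSP90 (2.16 ± 0.38), and Bag1 (2.08 ± 0.41). Of 8 tested partners of the HSF1 programme, 4 were higher and 0 lower, with Hspa4l at 2.83 ± 0.32 and Cryab, a small heat shock protein, at 1.82 ± 0.29. Of 13 tested chaperones of the endoplasmic reticulum, 3 were higher and 1, Dnajb9, was lower (-1.84 ± 0.42), a share near that of all genes. The immediate early genes, which tissue dissociation is known to raise, had 8 of 19 higher and 1 lower; their part in these differences was not tested.

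Transit-amplifying-like cells were then set against astrocyte-like cells. The astrocyte-like cluster was led by Slc7a10, Htra1 and Ntm, and the cluster led by Gfap, Id3 and Thbs4, with 754 ± 15.6 CPM of Hsp90aa1 (SD, n = 2), is not part of it. In this comparison 5 of 8 members tested were higher and 1 was lower, against 20.1% of all genes called higher and 22.3% lower (42.4% in all, edgeR). The members' median log2 fold change was 1.45, against -0.01 over all genes tested. Hsp90aa1 differed by 2.92 ± 0.29 (edgeR adjusted p = 1.31e-22), Hsp90ab1 by 2.04 ± 0.26, Dnaja1 by 1.68 ± 0.28, Hsph1 by 1.53 ± 0.45 and Hspa8 by 1.03 ± 0.25. Hspa5 differed the other way, by -1.65 ± 0.28 (edgeR adjusted p = 2.52e-08). Dnajb1 (1.37 ± 0.70, adjusted p = 0.101) and Hspb1 (-0.56 ± 1.21, adjusted p = 0.751) did not pass in edgeR. The calls of Hsph1, Hspa8 and Hspa5 did not hold without tdTom- library 1, where these genes differed by 1.80, 1.11 and -1.36. That of Hsph1 did not hold without library 2 either (0.95), nor with DESeq2 (adjusted p = 0.0859). Either omission leaves 1 transit-amplifying-like library. Dnajb1 was called with the stricter cell filter (edgeR adjusted p = 0.0157) and with Scrublet calls removed (0.0124).

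The other chaperone groups are counted beside 20.1% of all genes called higher and 22.3% called lower. Of 13 tested endoplasmic reticulum chaperones, 5 were lower and 0 higher in transit-amplifying-like than in astrocyte-like cells, led by Dnajb9 (-1.89 ± 0.33), Dnajc3 (-1.36 ± 0.35) and Pdia4 (-1.26 ± 0.38). Of 13 tested subunits of the TRiC chaperonin and prefoldin, which fold actin and tubulin, 11 were higher and 0 lower, led by Tcp1 (2.19 ± 0.33), Cct8 (2.12 ± 0.34) and Cct4 (2.01 ± 0.32). The cochaperones had 9 of 14 higher. Partners of the HSF1 programme had 1 of 8 higher and 4 lower, among them Cryab (-2.61 ± 0.37) and Serpinh1 (-2.53 ± 0.35), a collagen chaperone. Of 19 immediate early genes tested, 8 were higher and 2 lower.

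Against ependymal-like cells, transit-amplifying-like cells had 6 of 8 members lower and 0 higher, where 24.4% of all genes were called lower and 40.1% called at all. The median over the members was -1.60, against -0.07 over all genes tested. Hspb1, which had 5 UMIs in transit-amplifying-like cells and passed the filter through the ependymal-like class, differed by -6.33 ± 0.54 (edgeR adjusted p = 5.31e-30). Its pooled ratio of ependymal-like to transit-amplifying-like CPM, which mixes class with library, was 75.7 (exact 95% interval 31.8 to 236). Hsph1 differed by -2.65 ± 0.29 (2.44e-18) and Hspa5 by -2.44 ± 0.28 (1.91e-16). Dnajb1 (-1.61 ± 0.50), Hsp90aa1 (-1.59 ± 0.25) and Hsp90ab1 (-0.73 ± 0.25) followed. Hspa8 did not pass (-0.49 ± 0.25, edgeR adjusted p = 0.108), nor did Dnaja1 (0.02 ± 0.27, 0.968), whose sign turned with RLE scaling (-0.10). The Dnajb1 call was lost with DESeq2 (adjusted p = 0.246). Without tdTom- library 1 the calls of Dnajb1 (-1.50), Hsp90aa1 (-1.56) and Hsp90ab1 (-1.09) did not hold, nor did that of Hsp90ab1 without library 2 (-0.48). The Hsp90ab1 call was also lost without the filter on low counts (edgeR adjusted p = 0.342), without the library block (0.0918) and with Scrublet calls removed (0.0687). Hspa8 was called with RLE scaling (edgeR adjusted p = 0.00813). Here the TRiC and prefoldin subunits had 5 of 13 higher and 0 lower in transit-amplifying-like cells, whereas the HSF1 partners had 6 of 8 lower and the endoplasmic reticulum chaperones 5 of 13 lower, with Dnajc3 at -3.02 ± 0.33.

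**Figure D2:**
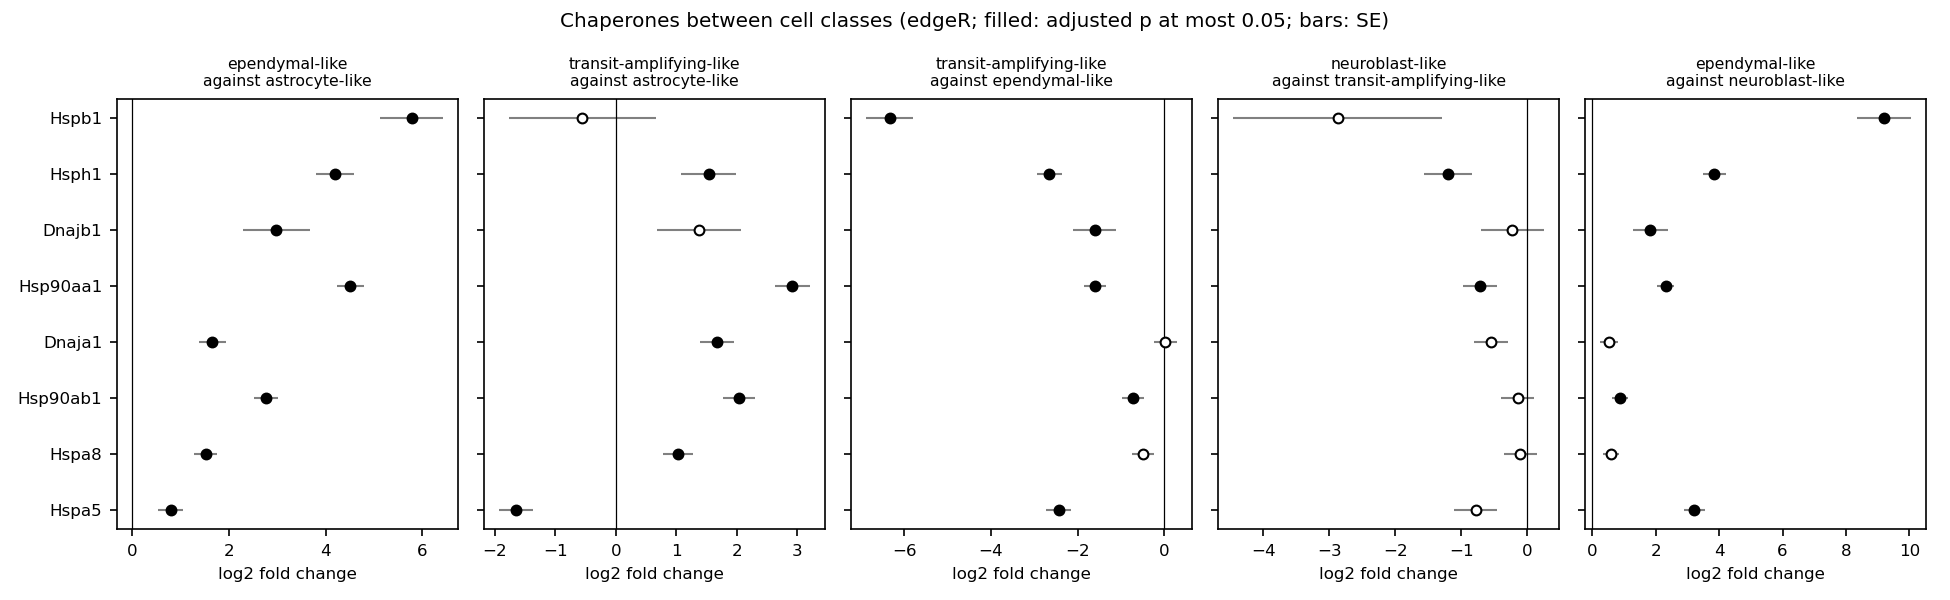
Log2 fold change of the 8 tested chaperones in the 5 comparisons of classes (points, with SE as bars; filled points have an edgeR adjusted p of at most 0.05). All 8 are filled and right of 0 for ependymal-like against astrocyte-like cells, and Hspa5 alone is filled left of 0 for transit-amplifying-like against astrocyte-like cells; the Hspb1 point against neuroblast-like cells is set against 0 UMIs and depends on the prior count.

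Neuroblast-like cells, young migrating neurons, were set against transit-amplifying-like cells. Of 8 members tested, 2 were lower and 0 higher, against 9.26% of all genes called lower, 7.02% higher and 16.3% called at all. The members' median was -0.64, against -0.05 over all genes tested. Hsph1 differed by -1.19 ± 0.36 (edgeR adjusted p = 0.00978) and Hsp90aa1 by -0.72 ± 0.26 (0.0351). Both calls were lost with DESeq2 (adjusted p = 0.242 and 0.223), without the filter on low counts (0.161 and 0.305 by edgeR) and without either tdTom- library. Hspa5 (-0.78 ± 0.32, adjusted p = 0.0806), Dnaja1 (-0.55 ± 0.26), Dnajb1 (-0.22 ± 0.48), Hsp90ab1 (-0.14 ± 0.25) and Hspa8 (-0.10 ± 0.25) did not pass in edgeR. The 95% interval of the log2 fold change was -0.63 to 0.35 for Hsp90ab1 and -0.59 to 0.39 for Hspa8. Hspb1, with 0 UMIs in neuroblast-like and 5 in transit-amplifying-like cells, did not pass either (adjusted p = 0.236 by edgeR). Around Hspa5, 8 of 13 endoplasmic reticulum chaperones were lower, led by Creld2 (-1.54 ± 0.53), Hsp90b1 (-1.45 ± 0.29), the HSP90 of that compartment, and Manf (-1.42 ± 0.31), and of the 7 mitochondrial chaperones tested 3 were lower, Hspd1 (-1.49 ± 0.28) first. The immediate early genes had 6 of 19 lower and 0 higher, and their part in these differences was not tested.

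Ependymal-like cells had 6 of 8 members higher than neuroblast-like cells and 0 lower, where 24.7% of all genes were called higher and 39.1% called at all. The median over these members was 2.07, against 0.18 over all genes tested, and it stays the same with Hspb1 at its bound. Hsph1 differed by 3.85 ± 0.36 (edgeR adjusted p = 3.03e-25), Hspa5 by 3.22 ± 0.32 (1.70e-21) and Hsp90aa1 by 2.31 ± 0.26 (7.14e-17). Hspb1, with 0 UMIs in neuroblast-like cells, was at least 62.0-fold higher pooled over libraries, against the floor of 3 counts over the class. This pooled fold mixes class with library, as 114 of 170 ependymal-like UMIs were in the tdTom+ library. Dnajb1 differed by 1.83 ± 0.55, a call lost with DESeq2 (adjusted p = 0.246) and without tdTom- library 1, where it differed by 1.84. Hsp90ab1 differed by 0.87 ± 0.26, a call lost without the filter on low counts (edgeR adjusted p = 0.175) and without the library block (0.052). The Hsp90ab1 call did not hold without either tdTom- library, with 1.08 without library 1 and 0.67 without library 2. Hspa8 (0.59 ± 0.25, edgeR adjusted p = 0.0521) and Dnaja1 (0.53 ± 0.28, 0.118) did not pass, although both did with RLE scaling. Dnaja1 also passed with DESeq2 (adjusted p = 0.0340). Of 13 tested endoplasmic reticulum chaperones 10 were higher, Dnajc3 (4.24 ± 0.40), Creld2 (3.55 ± 0.55) and Pdia4 (3.05 ± 0.48) most, while 4 of 13 TRiC and prefoldin subunits were lower and 0 higher. Of 19 immediate early genes 8 were higher and 0 lower.

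The balance of inducible and constitutive members was summarised as the log2 ratio of summed UMIs of Hspa1a, Hspa1b, Hspb1, Hsph1 and Dnajb1 to those of Hsp90ab1 and Hspa8, and is given without a test. In ependymal-like cells it was -2.53 in the tdTom+ library and -2.39 and -2.60 in tdTom- libraries 1 and 2, that is 17.4, 19.1 and 16.5 inducible UMIs per 100 constitutive ones. Transit-amplifying-like cells had -4.90 and -4.98, neuroblast-like cells -5.41 and -6.04, and cells led by Prokr2 and Pbx3 -4.67 and -5.67 in the tdTom- libraries. The ependymal-like values were above all of these and within 0.22 of each other. Astrocyte-like cells had -3.95, -5.25 and -5.10, the first from 2 inducible UMIs. Endothelial-like cells stood highest at -0.34, where Hspb1 gave 59 of the 65 inducible UMIs. Oligodendrocyte-like cells, at -2.64 and -4.93, and oligodendrocyte precursor-like cells, at -3.17 and -4.87, had from 7 to 17 inducible UMIs in a library and differed widely between libraries. In tdTom- library 1 the neuroblast-like and the Prokr2 and Pbx3 values rest on 11 and 15 inducible UMIs. The ependymal-like mean was -2.51 ± 0.11 (SD, n = 3). Hsph1 weighed most in these sums. It gave 394 of 688 inducible UMIs in ependymal-like cells, 155 of 224 in transit-amplifying-like cells and 31 of 52 in neuroblast-like cells. In ependymal-like cells Hspb1 gave 170, Dnajb1 55, Hspa1b 44 and Hspa1a 25.

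**Figure D3:**
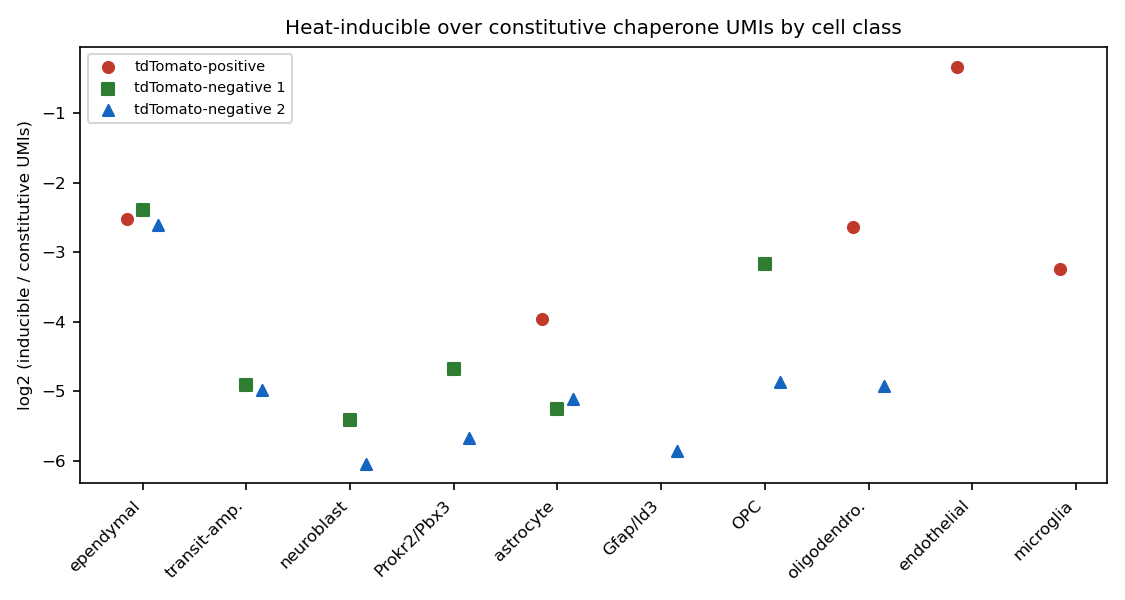
Log2 ratio of inducible to constitutive chaperone UMIs by cell class, with a point for each library that held at least 10 cells of the class and at least 1 inducible UMI. The 3 ependymal-like points lie between -2.60 and -2.39, above the transit-amplifying-like and neuroblast-like points, and the single endothelial-like point lies highest at -0.34.

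The sort gates were compared over all kept cells, which asks how the tdTom+ cells differ from other Sox2-GFP cells, whatever their class. Of 10 members 6 were higher in the tdTom+ library and 0 lower, where 22.9% of 10944 genes were called higher and 41.8% called at all. With 1 library set against 2 there was 1 residual degree of freedom, and the tdTom+ library is taken to have the same spread as the tdTom- ones. The fit shares its estimate of spread between genes. Small p-values therefore rest on that shared estimate and not on the spread of each gene alone. The members' median log2 fold change was 1.57, against -0.07 over all genes tested. Hspa1a and Hspa1b are among the 6 and passed the filter on low counts only through the tdTom+ library, where they are high. Had they been low there, they would not have been tested, so this count and median describe the genes that passed.

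Of the 5 inducible members, 4 were called between the gates. Hspb1 had 246 CPM in the tdTom+ library, against 8.64 and 15.6 CPM in the tdTom- ones (log2 fold change 4.20 ± 0.33, edgeR adjusted p = 6.49e-35). Hspa1b had 51.4 CPM against 6.48 and 2.23 CPM (3.96 ± 0.55, edgeR adjusted p = 1.25e-11), and Hspa1a had 31.9 CPM against 2.16 and 5.02 CPM (2.91 ± 0.64, edgeR adjusted p = 2.93e-05), a call lost with DESeq2 (0.0524). All 3 tdTom+ values were several times those of both tdTom- libraries. The tdTom- values of the pair rest on 6 and 8 UMIs of Hspa1b and 2 and 18 of Hspa1a, so both genes passed the filter through the lone tdTom+ library, where they are high, and their calls describe these 3 libraries. With tdTom- library 2 left out, a fit with no test, the log2 fold change was 3.03 for Hspa1b, 3.87 for Hspa1a and 4.88 for Hspb1, and without library 1 it was 4.30, 2.47 and 3.78. Hsph1 had 407 CPM against 87.5 and 77.8 CPM (2.36 ± 0.30, edgeR adjusted p = 9.66e-14). Dnajb1 had 51.4 CPM against 32.4 and 26.8 CPM and did not pass (0.87 ± 0.38, edgeR adjusted p = 0.0537).

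Outside that set, Hsp90aa1 had 4045 CPM in the tdTom+ library, against 1356 and 1837 CPM in the tdTom- ones (1.38 ± 0.31, edgeR adjusted p = 4.65e-05). Hspa5 had 633 CPM, against 164 and 218 CPM (1.76 ± 0.30, edgeR adjusted p = 7.59e-08). Hsp90ab1, with 2486 CPM against 1505 and 1852 CPM, did not pass (0.61 ± 0.31, edgeR adjusted p = 0.102), and neither did Hspa8, with 1676 CPM against 1351 and 1566 CPM (0.25 ± 0.32), or Dnaja1, with 541 CPM against 502 and 511 CPM (0.15 ± 0.31). For these 3 the tdTom+ value was above both others, and the 95% intervals of the log2 fold change reached 1.23, 0.87 and 0.77. Without tdTom- library 1 the log2 fold change was -0.09 for Hspa8, -0.10 for Dnaja1, 0.24 for Hsp90ab1, 0.95 for Hsp90aa1 and 1.35 for Hspa5, so that Hspa8 and Dnaja1 turned sign.

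In the tdTom+ library the transcripts behind these differences were mostly in ependymal-like cells, which were 177 of its 252 cells and held 588250 of its 720340 UMIs. Of the tdTom+ library's UMIs, these cells held 37 of 37 for Hspa1b, 21 of 23 for Hspa1a and 2824 of 2914 for Hsp90aa1, and for Hspb1 they held 114 of 177 with 59 more in endothelial-like cells. In tdTom- library 2, the 45 ependymal-like cells among 1121 held 50 of 56 Hspb1 UMIs and 5 of 8 Hspa1b UMIs. They held a smaller part of the others, 3 of 18 Hspa1a and 1193 of 6586 Hsp90aa1 UMIs. Summed ependymal markers were 14113 CPM in the tdTom+ library, with 12 of 12 detected, against 1026 and 1095 CPM in tdTom- libraries 1 and 2. Another comparison, added after the data were seen, left out the clusters named endothelial-like, microglia-like or mural-like. In it 8 members were higher, where 2418 of 10699 genes were called higher and 4466 called at all. Dnajb1 (1.03, edgeR adjusted p = 0.0201) and Hsp90ab1 (0.76, 0.0327) had joined. Summed immediate early transcripts were 2353 CPM in the tdTom+ library and 1143 and 1483 CPM in the tdTom- ones. Of 20 tested over all kept cells, 12 were higher and 2 lower in the tdTom+ library, against 22.9% and 19% of all genes. Atf3 changed most (5.10 ± 0.68). These values and the mitochondrial share move with the gate, and their part in the members' differences was not tested. Beside the same 22.9% higher and 19% lower of all genes, 7 of 11 HSF1 partners were higher over all cells (Hspb8, a small heat shock protein, most, at 2.80). Of the endoplasmic reticulum chaperones 7 of 14 were higher, and of the TRiC and prefoldin subunits 7 of 13 were lower. Each of these groups had 0 the other way.

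Within ependymal-like cells, the class both gates share most, no member was called. Of 9 members that passed the filter, 0 had an adjusted p of at most 0.05 in edgeR and 0 in DESeq2, and 0 had an unadjusted p under 0.05 in either, where 0.242% of 2062 genes were called in edgeR (5 genes, 0.145% higher and 0.097% lower) and 77 had an unadjusted p under 0.05. Hsp90aa1 had 4801 CPM in the tdTom+ library, against 6134 ± 1031 CPM in the tdTom- libraries (SD, n = 2) (log2 fold change -0.25, 95% interval -0.999 to 0.50). Hspb1 differed by -0.26 (-0.87 to 0.35), Hsph1 by -0.15 (-0.72 to 0.42) and Hspa5 by -0.02 (-0.60 to 0.56). Without tdTom- library 2, which leaves the 12 ependymal-like cells of library 1 and no test, the values were 0.92 for Hspb1, 0.21 for Hsp90aa1, 0.48 for Hsp90ab1 and 0.08 for Dnajb1. These turned sign, with Hspb1 above its interval, so no direction is read between the gates. Hspa1b (1.03, -0.49 to 2.56) and Dnajb1 (-0.82, -1.87 to 0.24) were less certain, with 2 and 3 UMIs in the 12 cells of tdTom- library 1, and Hspa1a did not pass the filter. The mitochondrial share of ependymal-like cells was 9.11% at the median in the tdTom+ library and 6.32% and 7.29% in the tdTom- ones, and Fos was the only gene of 12 immediate early genes tested that was called, higher in the tdTom+ library (1.56 ± 0.35, edgeR adjusted p = 0.00490).

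**Figure D4:**
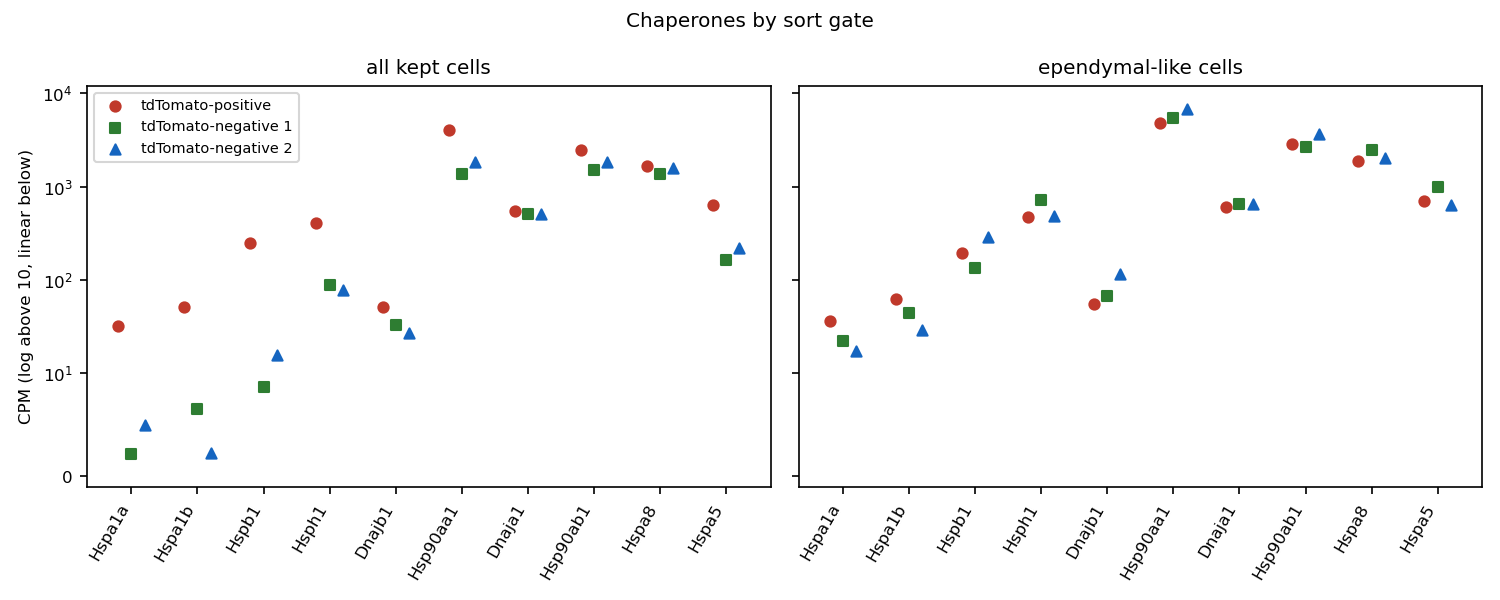
Level of each chaperone (CPM, log axis above 10 and linear below) by library, over all kept cells (left) and over ependymal-like cells (right). Over all cells the tdTom+ points of Hspa1a, Hspa1b, Hspb1, Hsph1, Hsp90aa1 and Hspa5 lie apart from both tdTom- points, whereas over ependymal-like cells Hsp90aa1 runs from 4801 to 6863 CPM with the tdTom+ point lowest.

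Across the 20 sums of at least 10 cells, the genes most like Hsp90ab1 in log2(CPM + 10) were Hspa8 (Pearson r = 0.905) and Hsp90aa1 (0.899), followed by Med28, Shfm1 and Hint1. Those most like Hspa8 were Hsp90ab1 and Cacybp (0.894), then Cct7, a TRiC subunit, Drosha and Hsp90aa1. For the summed Hspa1a and Hspa1b counts the most alike were Dnajc6 (0.933), Cd59b, Nek5, Lrrc46 and Tctex1d1, none above 20.5 CPM on average. The sums share libraries and differ in depth, so these values describe likeness over these classes and carry no p.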

How the data were processed

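Libraries of the 10x Chromium 3′ kit (v2) from 3 sorts were deposited as raw UMI counts per gene and cell barcode; per the submitters' processing notes the authors used Cell Ranger, STAR and Seurat 1.4.0.15 with mm10 and GRCm38.p5, and the rule for calling cells is not given in the sources used here. Kept barcodes had 300 genes or more and a mitochondrial share of 25% or less, without doublet removal (Scrublet called 9, 2 and 3). Cells were clustered with scanpy 1.11.5 (1000 variable genes, 20 components, 15 neighbours, Leiden resolution 1.0) on genes with an even last Ensembl digit and 132 markers, without the members or the list genes, and classes were tested on the 13948 genes left. A cluster took a name with at least 3 markers at least 2-fold up, 2 of them in its top 10. Counts were summed per library and class of at least 10 cells and tested with edgeR 4.0.16 (TMM, filterByExpr, quasi-likelihood F, Benjamini-Hochberg, threshold 0.05; library as a block for classes, 16 sums, 6 residual degrees of freedom), with DESeq2 1.42.0 as an alternative; SE is the size of the log2 fold change over the root of F, and 95% intervals rest on it. The edgeR fit shares its estimate of spread between genes. It was also run on simulated counts of the genes that passed the filter. This covered the gates over all cells and ependymal-like against astrocyte-like cells only. Members were all named; of each list, up to 3 called genes with the largest change were named. The members and the lists were chosen with earlier results of these data known. Totals were 788344, 929997 and 3593633 UMIs for tdTom+ and tdTom- 1 and 2. Promoters come from RefSeq (GRCm38.p6), gene positions from GENCODE.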

Additional observations from a re-analysis of the deposited data

How the results depend on the processing

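Of the member values recomputed under other settings, 505 counted as unchanged, 34 lost the call, 16 gained it and 13 turned direction in a tested fit. Another 12, from fits with no test, moved by an SE or more. Unchanged means the same direction and side of the threshold in a tested fit. In a fit with no test it means a shift of less than an SE, whatever the sign. Some values of fits with no test therefore turned sign outside the 13, such as Dnaja1 between gates over all cells (-0.10) and Hspa8 there (-0.09). In transit-amplifying-like against astrocyte-like cells, 6 members were called without the tdTom+ library, where 1611 of 3454 genes tested were called. With 1 library left out, Dnajc3 there ran from -1.53 to 0.024 and Hspb1 from -1.01 to 2.99, the high values without tdTom- library 2. RLE scaling moved the median of all genes in that comparison from -0.01 to -0.14. In neuroblast-like against transit-amplifying-like cells, 0 members were called with DESeq2 (187 of 3446 genes called), where 3 had an unadjusted p under 0.05. Without the filter on low counts 0 members were called (407 of 8480 genes). Without the library block 1 was called (398 of 3446 genes), and 1 without Scrublet calls (540 of 3059). With RLE scaling 4 were called (820 of 3446 genes), and 4 without the tdTom+ library (863 of 3454). Hsp90ab1 there was 0.0092 with the stricter cell filter and ran from -0.18 to 0.014 with 1 library left out. Dnaja1 in transit-amplifying-like against ependymal-like cells was -0.081 with DESeq2, -0.020 without the block, -0.10 with RLE scaling, and from -0.052 to 0.10 with 1 library left out. Between gates in ependymal-like cells, Dnaja1 (0.075), Hsp90ab1 (0.020) and Hspa5 (0.054) turned without the filter on low counts, Hspa5 (0.016 and 0.014) without Scrublet calls and with the stricter cell filter, and Hspb1 (0.012) with that stricter filter. With Hsp90aa1 and Dnaja1 counted as inducible, the inducible over constitutive ratio was 0.48 in ependymal-like, -1.32 in astrocyte-like, -0.44 in transit-amplifying-like, -1.01 in neuroblast-like, -0.31 in oligodendrocyte precursor-like and -0.22 in oligodendrocyte-like cells and -0.74 in those led by Prokr2 and Pbx3. Without Hspb1 it was -2.88 in ependymal-like cells, and in transit-amplifying-like cells it was -5.14 with the stricter cell filter and -5.08 with odd-digit clustering. The causes were not tested. Over all genes, DESeq2 called 1908 genes between gates against 4579 by edgeR, and 187 against 561 in neuroblast-like against transit-amplifying-like cells. Without tdTom- library 2, 329 of 1354 genes tested were called in ependymal-like against astrocyte-like cells, against 1071 of 3446 with all libraries. The other class comparisons then rest on 1 library in a group. Their counts of called genes fell by more than 1.5 times too, with the same smaller set of genes tested. No paired analysis was possible because the gates share fewer than 2 replicate numbers; leaving out a tdTom- library there left no residual degrees of freedom and so no test. Resolution 0.5 gave no neuroblast-like class, so both comparisons with it were not run. Classes of 12 to 15 cells in a library limit the precision of the rarest members.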

Other observations

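The 62 tdTom+ barcodes that failed the cell filter (68004 UMIs, median mitochondrial share 30.4%) differed in chaperone levels from the 252 kept cells of the same library. Hspa5 was 1588 CPM in the failed barcodes and 633 CPM in the kept cells, whereas Hsp90aa1 was 1529 and 4045 CPM, Hsp90ab1 1162 and 2486 CPM, Hspa8 735 and 1676 CPM and Hspb1 58.8 and 246 CPM. Dnajb1 had 0 UMIs in the failed barcodes. The tdTom- libraries had 3 and 6 failed barcodes, with Hspa5 at 2133 and 2074 CPM from 8 and 16 UMIs, Hsp90aa1 at 1866 and 1814 CPM from 7 and 14 UMIs, and Hsp90ab1 at 2399 and 2074 CPM from 9 and 16 UMIs. The kept cells of those libraries had 164 and 218 CPM of Hspa5, 1356 and 1837 CPM of Hsp90aa1 and 1505 and 1852 CPM of Hsp90ab1. No test was made on these few UMIs.

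The 2 clusters of the transit-amplifying-like class held the same members at somewhat different levels in the tdTom- libraries. Cells led by Top2a and Cenpf, genes of mitosis, had 1777 and 2594 CPM of Hsp90aa1 in tdTom- libraries 1 and 2, against 1405 and 1855 CPM in cells led by Ung and Mcm2, genes of DNA synthesis and repair. Hsp90ab1 ran the other way, with 1796 and 2016 CPM against 2141 and 2510 CPM. Hspa5 was 104 and 152 CPM against 141 and 179 CPM.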
